A study of Mus musculus with 8 samples.

Results

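The genes of the proteasome subunits were examined in the cerebellum of *Atm*-knockout mice. They were taken as the protein-coding genes whose symbol is Psma, Psmb, Psmc or Psmd followed by a number, without the inducible subunits *Psmb8*, *Psmb9* and *Psmb10*. This rule found 36 of the 56691 genes in the count table, on 16 chromosomes. A total of 35 members were among the 22423 genes with enough counts to be tested, and *Psmb11* was the exception. Bulk RNA sequencing of cerebellar tissue compared 4 *Atm*-WT mice (genotype ATM +/+, libraries 2M, 7M, 13M and 32M) with 4 *Atm*-KO mice (genotype ATM -/-, libraries 1M, 7F, 11M and 12M), all 6 months old with no treatment named and a library for each mouse. The mice came from heterozygous crosses of the B6;129S4-Atmtm1Bal/J strain, so the knockout is present in every cell of the body, and the *Atm*-WT mice were littermates. The comparison asks how loss of ATM, the kinase that is mutated in ataxia-telangiectasia, alters the transcriptome of the tissue that degenerates in the disease. In such bulk tissue, fewer cells of a type and less RNA per cell cannot be told apart.

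The proteasome degrades proteins that carry ubiquitin chains. Its 20S core is a barrel of stacked rings, in which alpha subunits guard the entrance and beta subunits hold the protease sites inside. The 19S regulatory particle caps the barrel. Its base holds a ring of ATPases that unfold the substrate, together with scaffold and ubiquitin-binding subunits, and its lid holds the enzyme that removes ubiquitin. Cells tend to make the subunits together, and when proteasome activity is short the transcription factor NRF1 (gene *Nfe2l1*) raises many subunit genes through antioxidant response elements. NRF2 (gene *Nfe2l2*) acts through these elements as well. Long-lived neurons such as Purkinje cells depend on this turnover.

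Most proteasome subunit genes were slightly lower in *Atm*-KO cerebella, and none passed the threshold by edgeR after adjustment over all genes. The log2 fold change of *Atm*-KO against *Atm*-WT was below 0 in 32 of the 35 members tested and above 0 in *Psmd9*, *Psma8* and *Psmd3*. Of all genes tested, 53.1% were below 0, as were 63.8% of the protein-coding genes and 71.0% of the 4485 genes with the highest mean CPM (counts scaled to the size of each library). The median of the members was -0.14, equal to 9.34% less RNA, beside -0.02 for all genes, -0.06 for the 15322 protein-coding genes and -0.06 for those 4485 genes. The members ranged from -0.31 in *Psmb5*, a decrease of 19.4%, to 0.09 in *Psmd9*. After Benjamini-Hochberg adjustment over all genes, the quasi-likelihood test of edgeR called 0 members at a p under 0.05, where it called 0.0178% of all genes (4 of 22423). The smallest adjusted p was 0.12, for *Psmd12*, so 0 members passed a looser threshold of 0.1 either, which 0.647% of all genes passed as lower. At an unadjusted p under 0.05, 11 members were lower and 0 were higher, beside 8.48% of all genes lower and 11.7% higher. Of the protein-coding genes 11.7% were lower at that threshold, and of the 4485 most highly expressed genes 15.5%. DESeq2 gave 11 lower as well (8.71% of 22416 of the genes tested by edgeR) and called 1 member, *Psmd12*, at an adjusted p of 0.0408. It called 2.44% of the 20724 genes it adjusted over as lower and 5.05% as higher. limma voom gave 11 lower at an unadjusted p under 0.05 (8.21% of all genes) and called 0 members after adjustment, where it called 0.00892% of all genes as lower and 0.00446% as higher. In 6 members, *Psma1*, *Psmb3*, *Psmb6*, *Psmd2*, *Psmd7* and *Psmd12*, the CPM of every *Atm*-KO library lay below every *Atm*-WT library. This was so for 5.12% of all genes, 6.98% of the protein-coding genes and 10.1% of the 4485 most highly expressed genes, and no member showed the opposite order, which 6.47% of all genes did. With library size alone in place of the TMM scaling, 28 members were lower (44.5% of all genes), 2 of them at an unadjusted p under 0.05 (4.66% of all genes), and the median was -0.09. With a surrogate variable in the fit, 27 were lower (48.9% of all genes), 0 of them at that threshold (4.35% of all genes), and the median was -0.04, with the value of 31 members moved by over 1.5 times. With a trend of transcript length and GC content removed from each library, 33 were lower (55.6% of all genes), 24 of them at that threshold (12.7% of all genes) and 0 after adjustment, and the median was -0.22. That fit moved 13 members by over 1.5 times. It gave -0.28 for *Psma1*, -0.20 for *Psmc2*, -0.16 for *Psmd6*, -0.40 for *Psmd14* and -0.32 for *Psmd10*, while *Psma5*, *Psma8*, *Psmd1* and *Psmd13* lay between -0.12 and -0.05.

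**Figure D1:**
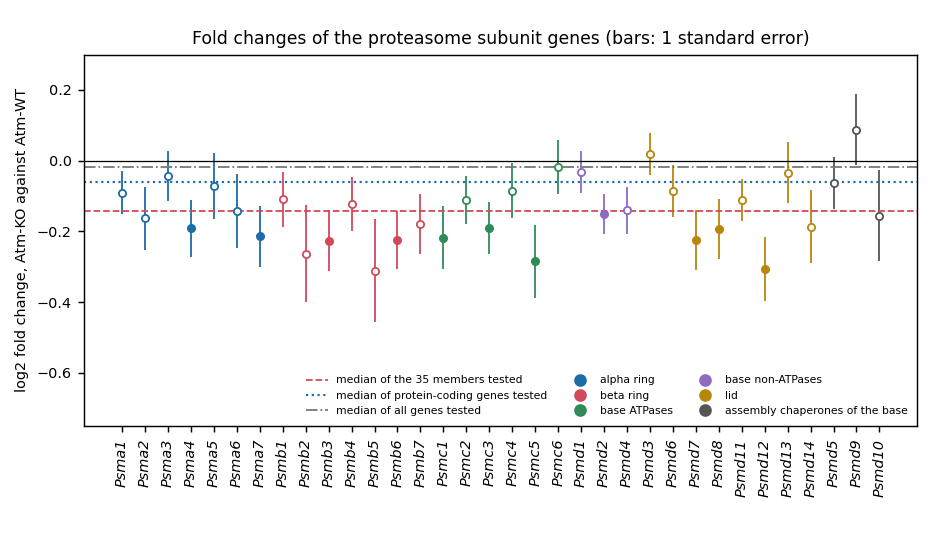
Log2 fold change of *Atm*-KO against *Atm*-WT (y axis) of 34 proteasome subunit genes (x axis, coloured by role), with bars of 1 standard error and n = 4 mice per genotype. Filled points have an unadjusted p under 0.05 and horizontal lines give medians. *Psma8*, at 0.05 with a standard error of 0.54, is not drawn, and the points range from -0.31 in *Psmb5* to 0.09 in *Psmd9*.

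The size of this difference depended on single libraries. *Atm*-WT 32M was the highest of the 8 libraries in 28 of the 35 members, and *Atm*-KO 12M was the lowest in 24. Relative to the mean log2 CPM of the *Atm*-WT libraries, the median of the members was -0.00 in *Atm*-WT 2M, -0.11 in 7M, -0.03 in 13M and 0.14 in 32M. It was -0.13 in *Atm*-KO 1M, -0.10 in 7F, -0.11 in 11M and -0.24 in 12M. *Atm*-WT 7M therefore lay within the range of the *Atm*-KO libraries. Without *Atm*-WT 32M, 28 members were lower (51.2% of all genes), 3 of them at an unadjusted p under 0.05 (6.96% of all genes), and the median was -0.09. Without *Atm*-KO 12M, 32 were lower (51.0% of all genes), 5 of them at that threshold (6.01% of all genes), and the median was -0.10. With both left out, 28 members were lower (49.4% of all genes), 1 of them at that threshold (*Psmd12*, beside 6.05% of all genes), and the median was -0.06 beside 0.00 for all genes. The counts of 3 and 1 members were thus near or below the share of all genes. Without *Atm*-WT 7M, the count at that threshold was 17 (8.63% of all genes), and without *Atm*-WT 2M it was 4 (6.68%). Without *Atm*-KO 7F or without *Atm*-KO 11M it was 7 (7.81% and 6.33% of all genes). Leaving out 32M, 12M or both added no member to the 6 that were lower without overlap, where 6.98%, 6.19% and 8.73% of all genes were so. With both left out, 1 member, *Psma8*, was higher without overlap, as were 9.61% of all genes.

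**Figure D2:**
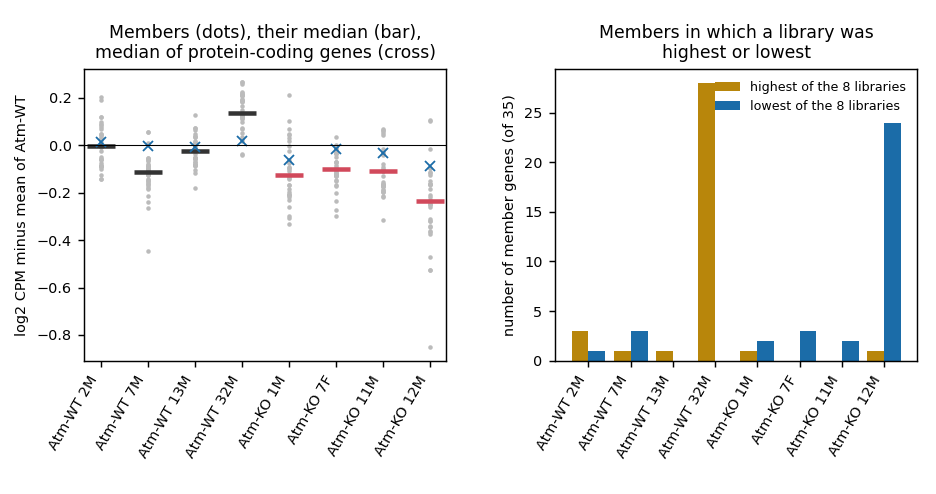
Left, log2 CPM of each proteasome subunit gene minus its *Atm*-WT mean (y axis) in each library (x axis), as dots without *Psma8*, with the median over 35 members as a bar and that of protein-coding genes as a cross. Right, the number of members (y axis) in which each library was the highest or the lowest of the 8, which reached 28 for *Atm*-WT 32M and 24 for *Atm*-KO 12M.

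Other measures differed between the genotypes as well, and only some of them followed the libraries named above. Total counts lay between 65967130 (12M) and 78431478 in the *Atm*-KO libraries, against 76912738 to 88030300 in the *Atm*-WT libraries. A list of 8 RNAs kept in the nucleus, among them *Malat1* and *Neat1*, was higher in *Atm*-KO in 8 of 8 genes. Its median level relative to *Atm*-WT was -0.41 in *Atm*-WT 32M, 0.08 to 0.14 in the other *Atm*-WT libraries and 0.52 to 1.05 in *Atm*-KO. Mitochondrially encoded genes took 0.903% to 1.2% of the counts in *Atm*-WT, against 0.565% to 0.952% in *Atm*-KO. Oligodendrocyte markers were lower in 5 of 5 genes, with sums of 3077 to 4077 CPM in *Atm*-WT, against 1852 to 3179 CPM in *Atm*-KO, the highest in 32M and the lowest in 12M, and microglial markers were lower in 5 of 5, with sums of 72.6 to 101 CPM and 59.3 to 77.1 CPM. Astrocyte and choroid plexus markers were also lower in 5 of 5 genes each, meningeal and Purkinje markers in 4 of 5, endothelial markers in 3 of 5 and granule cell markers in 1 of 5, while red blood cell markers were lower in 0 of 5. Beside these counts, 63.8% of the protein-coding genes were below 0. The astrocyte list held *Aldoc* (log2 fold change -0.15), which the study used as a marker of a Purkinje cell subset. The choroid plexus sum was 741 to 1489 CPM and 404 to 1173 CPM, where 12M was the highest of the *Atm*-KO libraries, and no marker gene was at 0 in any library. The markers of the cerebellar neurons were high in both genotypes, with sums of 7730 to 9612 CPM and 7617 to 9180 CPM for Purkinje cells and of 2869 to 3484 CPM and 3093 to 3974 CPM for granule cells. The part of these measures in the proteasome result was not tested. *Atm* itself had 59.0 to 80.03 CPM in *Atm*-WT, above the 41.1 to 51.1 CPM in *Atm*-KO without overlap, with a log2 fold change of -0.66 and an adjusted p of 0.0775 by edgeR.

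The starts of the member genes were searched for motifs of factors known to act on proteasome genes, on both strands of the 250 bases before and 50 bases from the start of the Ensembl canonical transcript (GRCm39, GENCODE vM39). The antioxidant response element core TGACNNNGC was found at 7 of 36 members (19.4%), beside 12.5% of 21770 protein-coding promoters. All 7 matches are shown, since NRF1 and NRF2 act through this element. Capitals mark the match, and each line is written along the strand of its gene, so that a match on the other strand shows as its reverse complement.
Psmb2: cgcgccagTGACTGGGCcgtcgcgc
Psmb5: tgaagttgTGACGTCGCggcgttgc
Psmb6: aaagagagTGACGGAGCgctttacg
Psmc6: agccagtaGCTAAGTCAggcattgc
Psmd7: aatgccaaGCTTCGTCAatagccta
Psmd9: ctagccggTGACCCCGCccacttcc
Psmd12: gatgttctGCTGTGTCAcatttgcc

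These windows lie on GRCm39 at chr4:126571414-126571438 for *Psmb2*, chr14:54855483-54855507 on the minus strand for *Psmb5*, and chr11:70416166-70416190 for *Psmb6*. For *Psmc6*, *Psmd7* and *Psmd9* they lie at chr14:45567046-45567070, at chr8:108315206-108315230 on the minus strand and at chr5:123366214-123366238. The window of *Psmd12* lies at chr11:107370099-107370123. The matches of *Psmb2*, *Psmb5* and *Psmb6* began 1, 18 and 9 bases before the start. None of the 7 overlapped a match to the other motifs searched. The log2 fold changes of these genes were -0.26 for *Psmb2*, -0.31 for *Psmb5*, -0.22 for *Psmb6*, -0.02 for *Psmc6*, -0.22 for *Psmd7*, 0.09 for *Psmd9* and -0.31 for *Psmd12*, so genes with a match stood at both ends of the range. Their median was -0.22, beside -0.13 for the 28 tested members without a match. CCAAT, the box bound by NF-Y, was found at 16 members (44.4%) and 39.9% of promoters. CCGGAA, the core of ETS factor sites, was found at 17 members (47.2%) and 16.9% of promoters. The tested members with CCGGAA had a median log2 fold change of -0.14, as did those without it. The 15 tested members with CCAAT had a median of -0.16 and the 20 without it -0.12, and 15 and 17 of them were below 0. CCGGAA was found at 5 of the 6 ATPases of the base, and their matches are shown because this motif differed most in share between members and other promoters.
Psmc1: ggatgcacTTCCGGcggtggcg
Psmc2: gtgagcacTTCCGGgatggggc
Psmc3: cccgcctcTTCCGGttgtgcag
Psmc5: ccattgacCCGGAActgttctc
Psmc6: cgggccagCCGGAAggggcgga

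These 5 windows lie at chr12:100076426-100076447, chr5:21990182-21990203, chr2:90884300-90884321, chr11:106146908-106146929 and chr14:45567173-45567194, all on the plus strand, and the log2 fold changes of the genes were -0.22, -0.11, -0.19, -0.29 and -0.02. A match is a description of the letters in this window, not a site in use.

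The beta ring, which carries the protease sites, was below 0 in 7 of 7 tested members with a median of -0.22, which was -0.15 without *Atm*-WT 32M. *Psmb5*, *Psmb6* and *Psmb7* encode the constitutive chymotrypsin-like, caspase-like and trypsin-like subunits. *Psmb5* (ENSMUSG00000022193, chr14:54850776-54855481) had 25.2, 24.1, 25.9 and 30.3 CPM in *Atm*-WT 2M, 7M, 13M and 32M, and 23.4, 24.1, 22.9 and 14.5 CPM in *Atm*-KO 1M, 7F, 11M and 12M. *Atm*-KO 12M stood far below all other libraries, and the remaining *Atm*-KO libraries lay near the lowest *Atm*-WT library. Its log2 fold change of -0.31 (SE 0.15) had an unadjusted p of 0.0548 by edgeR, and it was -0.17 without *Atm*-KO 12M. *Psmb6* (ENSMUSG00000018286, chr11:70416183-70418684) had 41.9, 41.2, 42.9 and 51.1 CPM in *Atm*-WT and 39.98, 37.5, 38.7 and 35.4 CPM in *Atm*-KO, in the same order of libraries. The genotypes lay close together but did not overlap, with a log2 fold change of -0.22 (SE 0.08) and an unadjusted p of 0.0177 by edgeR. *Psmb7* had 65.2, 57.03, 59.7 and 72.0 CPM in *Atm*-WT and 57.9, 57.8, 58.6 and 49.8 CPM in *Atm*-KO, and the genotypes overlapped (log2 fold change -0.18, unadjusted p = 0.0565 by edgeR, and -0.12 without *Atm*-WT 32M). Exons of *Psmb7* share 2817 bases with *Nek6* on the other strand, and whether counting used the strand is not given in the sources used here.

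Among the structural beta subunits, *Psmb3* had 34.7, 33.2, 37.1 and 43.0 CPM in *Atm*-WT and 32.7, 29.9, 32.8 and 31.0 CPM in *Atm*-KO. Every *Atm*-KO library was lower than every *Atm*-WT library, with a log2 fold change of -0.23 (SE 0.09) and an unadjusted p of 0.0226 by edgeR, and of -0.15 without *Atm*-WT 32M. *Psmb1* was the tested beta subunit with the largest p (0.188), with 77.1, 76.5, 86.4 and 89.1 CPM in *Atm*-WT and 83.1, 73.2, 79.7 and 69.0 CPM in *Atm*-KO. Its log2 fold change of -0.11 was -0.07 without *Atm*-WT 13M, *Atm*-WT 32M or *Atm*-KO 12M. *Psmb2* had a log2 fold change of -0.26 (unadjusted p = 0.0798 by edgeR), which was -0.40 without *Atm*-WT 7M (unadjusted p = 0.00248) and -0.18 without *Atm*-WT 32M. Its lowest library of all was *Atm*-WT 7M at 11.995 CPM, while the other *Atm*-WT libraries had 16.05 to 19.6 CPM and the *Atm*-KO libraries 13.2 to 14.3 CPM. *Psmb4*, whose exons overlap those of *Pogz*, had -0.12, and -0.06 without *Atm*-WT 32M. *Psmb11*, the subunit of the thymus-specific proteasome, was not tested, with at most 0.105 CPM in any library and 5 libraries at 0.

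**Figure D3:**
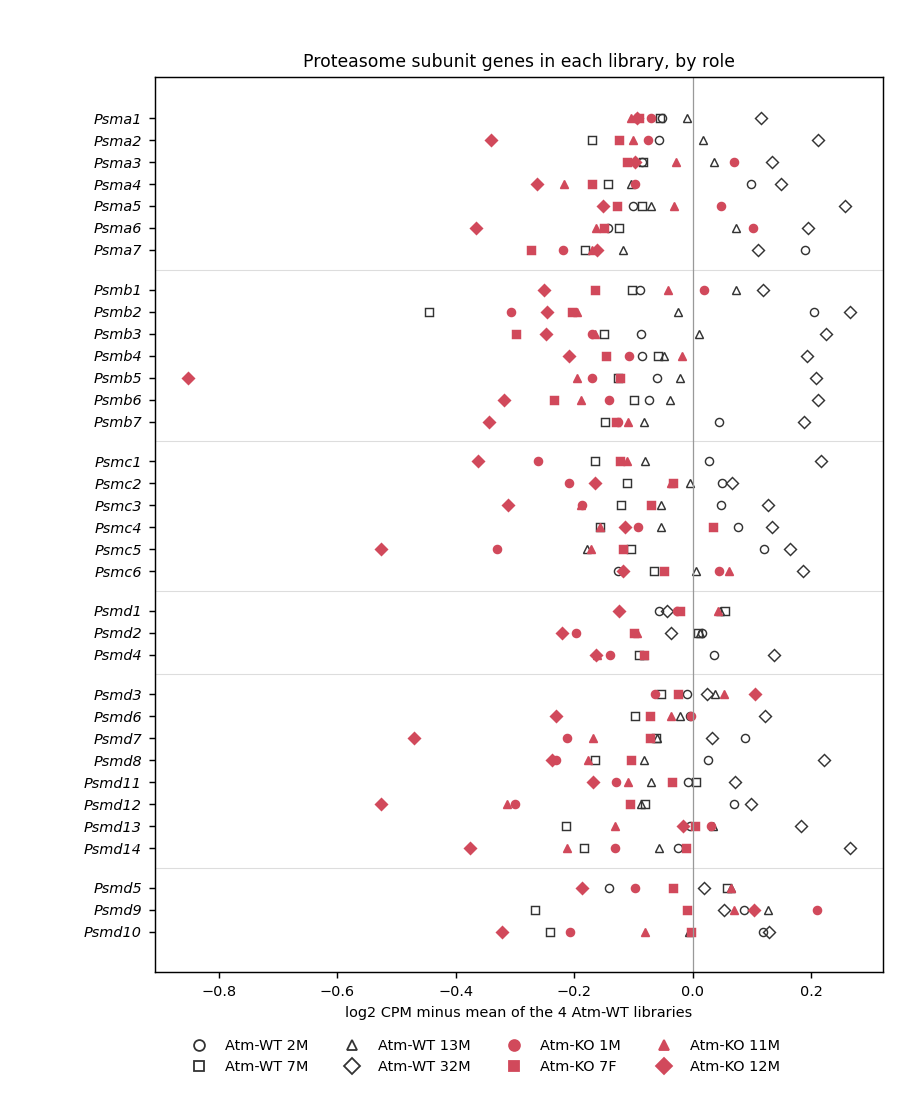
Log2 CPM of 34 proteasome subunit genes (y axis, grouped by role from the alpha ring at the top to the base chaperones) in each of the 8 libraries, minus the mean of the 4 *Atm*-WT libraries (x axis). Open symbols are *Atm*-WT and filled symbols *Atm*-KO mice. The diamonds of *Atm*-WT 32M lie at the right end of most lines and those of *Atm*-KO 12M at the left end, with *Psmb5* at 14.5 CPM the farthest.

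The alpha ring, the gated entrance of the core, was below 0 in 7 of 8 members with a median of -0.12, which was -0.06 without *Atm*-WT 32M and -0.26 with the length and GC trend removed. *Psma7* (chr2:179678155-179684421), the alpha subunit with the smallest p, had 49.9, 38.5, 40.3 and 47.2 CPM in *Atm*-WT and 37.5, 36.2, 38.8 and 39.1 CPM in *Atm*-KO. *Atm*-WT 2M and 32M stood above the rest, and the other libraries of both genotypes overlapped (log2 fold change -0.21, SE 0.09, unadjusted p = 0.031 by edgeR). Its exons share 132 bases with *Ss18l1* on the other strand, which had up to 4339 counts in a library. *Psma4* had 41.7, 35.2, 36.2 and 43.2 CPM in *Atm*-WT and 36.4, 34.6, 33.5 and 32.4 CPM in *Atm*-KO, also highest in 2M and 32M (log2 fold change -0.19, unadjusted p = 0.0376 by edgeR). This gene (chr9:54858066-54866448) lies on the same chromosome as *Atm* (chr9:53348097-53448236). Whether DNA near the targeted locus has a part in its value was not tested. *Psma1* differed little but without overlap, at 53.1 to 59.7 CPM in *Atm*-WT against 51.3 to 52.5 CPM in *Atm*-KO, with a log2 fold change of -0.09 (-0.05 without *Atm*-WT 32M) and an unadjusted p of 0.161 by edgeR. *Psma2*, *Psma3*, *Psma5* and *Psma6* had -0.16, -0.04, -0.07 and -0.14. Without *Atm*-WT 32M, *Psma2* had -0.09 and *Psma6* -0.07, and without *Atm*-KO 12M they had -0.11 and -0.07. Without *Atm*-KO 1M, *Psma6* had -0.23. With the length and GC trend removed, *Psma2*, *Psma3* and *Psma6* had -0.36, -0.22 and -0.25, each at an unadjusted p under 0.05. *Psma3* and *Psma5* lay above 0 without *Atm*-WT 32M, at 0.00 and 0.02, and *Psma3* was also above 0 with library size alone (0.01). *Psma8*, the alpha subunit of the testis, was near the limit of detection with 0.211, 0.188, 0.175 and 0.478 CPM in *Atm*-WT and 0.282, 0.361, 0.387 and 0.0592 CPM in *Atm*-KO. It had 4 counts in *Atm*-KO 12M and 41 at most in any library.

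The ATPases of the base, which form the unfolding ring, were below 0 in 6 of 6 members with a median of -0.15. *Psmc5* (chr11:106146951-106156291) had 96.96, 83.0, 78.8 and 99.96 CPM in *Atm*-WT and 71.0, 82.3, 79.2 and 62.0 CPM in *Atm*-KO. *Atm*-KO 1M and 12M were the lowest, and 7F and 11M lay within the *Atm*-WT range (log2 fold change -0.29, SE 0.10, unadjusted p = 0.0173 by edgeR). Exons of *Psmc5* share 1269 bases with *Smarcd2* on the other strand. *Psmc3* had 85.6, 76.2, 79.9 and 90.5 CPM in *Atm*-WT and 72.8, 78.9, 72.7 and 66.8 CPM in *Atm*-KO, where 7F alone reached the *Atm*-WT range (log2 fold change -0.19, SE 0.07, unadjusted p = 0.0246 by edgeR). *Psmc6* was nearly level, with 81.8, 85.3, 89.6 and 102 CPM in *Atm*-WT and 92.0, 86.3, 93.1 and 82.2 CPM in *Atm*-KO (log2 fold change -0.02, unadjusted p = 0.814 by edgeR). The value of *Psmc6* was above 0 with library size alone (0.03), without *Atm*-WT 32M (0.05) and in other alternatives, but it was -0.33 with the length and GC trend removed (unadjusted p = 0.01425 by edgeR). *Psmc1*, *Psmc2* and *Psmc4* had -0.22, -0.11 and -0.08, and *Psmc1* was lower at an unadjusted p of 0.0328 by edgeR, with -0.14 without *Atm*-WT 32M. *Psmc4* had -0.04 without *Atm*-WT 32M, -0.05 without *Atm*-KO 11M and -0.14 without *Atm*-WT 7M.

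The other base subunits are the scaffolds *Psmd1* and *Psmd2* and the ubiquitin receptor *Psmd4*, all 3 below 0 with a median of -0.14. *Psmd2* (chr16:20470346-20485708) had 230, 229, 230 and 222 CPM in *Atm*-WT and 199, 213, 213 and 195 CPM in *Atm*-KO. The *Atm*-WT libraries were close together, and *Atm*-WT 32M was here the lowest of them, yet above every *Atm*-KO library. The log2 fold change of *Psmd2* was -0.15 (SE 0.06, unadjusted p = 0.0218 by edgeR), and it was -0.16 without *Atm*-WT 32M, -0.13 without *Atm*-KO 12M and -0.14 without both. *Psmd4* had 66.2, 60.6, 61.0 and 71.0 CPM in *Atm*-WT and 58.6, 61.0, 57.7 and 57.7 CPM in *Atm*-KO (log2 fold change -0.14, unadjusted p = 0.0586 by edgeR). *Psmd1* had 127, 137, 136 and 128 CPM in *Atm*-WT and 130, 130, 136 and 121 CPM in *Atm*-KO, so the genotypes overlapped nearly in full (log2 fold change -0.03, and 0.02 with library size alone). Its value was -0.053 to -0.00065 when a library was left out.

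The lid was below 0 in 7 of 8 members with a median of -0.15, which was -0.09 without *Atm*-WT 32M. *Psmd12* (ENSMUSG00000020720, chr11:107370246-107395206), a scaffold of the lid, had the smallest p of all members. It had 50.5, 45.4, 45.3 and 51.5 CPM in *Atm*-WT and 39.1, 44.7, 38.7 and 33.4 CPM in *Atm*-KO. The highest *Atm*-KO library, 7F, lay just below the lowest *Atm*-WT library, and the other 3 lay well below. The log2 fold change was -0.31 (SE 0.09, unadjusted p = 0.00555, adjusted p = 0.12 by edgeR). *Psmd12* was the member whose unadjusted p stayed under 0.05 in 8 of 8 fits that left out a library, with log2 fold changes of -0.36 to -0.24. With the surrogate variable its value was -0.17 (adjusted p = 0.513 by edgeR), and its unadjusted p was not under 0.05.

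*Psmd7*, the partner of the deubiquitinase, had 54.7, 49.3, 49.3 and 52.6 CPM in *Atm*-WT and 44.4, 48.9, 45.8 and 37.1 CPM in *Atm*-KO. The genotypes did not overlap, although 7F came within 1 CPM of *Atm*-WT (log2 fold change -0.22, SE 0.09, unadjusted p = 0.0231 by edgeR). *Psmd14*, the deubiquitinase of the lid, overlapped between genotypes at 46.7 to 63.6 CPM and 40.8 to 52.5 CPM (log2 fold change -0.19, unadjusted p = 0.0979 by edgeR, and -0.09 without *Atm*-WT 32M). *Psmd3* had 80.6, 78.2, 83.3 and 82.5 CPM in *Atm*-WT and 77.6, 79.8, 84.2 and 87.3 CPM in *Atm*-KO. It was the lid subunit above 0 (log2 fold change 0.02), and *Atm*-KO 12M, the lowest library for most members, was its highest. *Psmd6*, *Psmd8*, *Psmd11* and *Psmd13* had -0.09, -0.19, -0.11 and -0.03 (0.01 for *Psmd13* with library size alone), with an unadjusted p under 0.05 for *Psmd8* alone of these (0.0431 by edgeR), whose value was -0.12 without *Atm*-WT 32M. *Psmd8* was not under that threshold by DESeq2 or limma voom, where *Psmb5* was (unadjusted p = 0.0352 and 0.0475). *Psmd6* had -0.04 without *Atm*-WT 32M and without *Atm*-KO 12M. *Psmd11* has a near copy in *A730017L22Rik*, which had up to 1381 counts in a library and 98.1% identity over 52.1% of the transcript, so reads may be split between them. The same holds for *Psmd2* and *Gm5422* (up to 45 counts, 96.4% over 90.2%). *Psmb3* has a near copy in *Gm6467* (97.5% over 96.5%), which was not among the genes counted. *Psma5* has near copies in *Gm12989* and *Psma5-ps*, with up to 36 and 20 counts. Exons of *Psmd13*, which had 2120 to 3215 counts, share 458 bases with *Sirt3* (up to 1478 counts) and 1231 bases with *Cox8b* (up to 36 counts), both on the other strand.

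The chaperones that assemble the base do not stay in the finished particle, and they differed among themselves, with a median of -0.06, which was -0.11 without *Atm*-WT 2M and -0.02 without *Atm*-KO 12M. *Psmd9* had 18.8, 14.7, 19.4 and 18.4 CPM in *Atm*-WT and 20.5, 17.6, 18.6 and 19.1 CPM in *Atm*-KO. It had the highest log2 fold change of the members (0.09, SE 0.10, unadjusted p = 0.403 by edgeR), which was 0.00 without *Atm*-WT 7M, 0.05 without *Atm*-KO 1M and up to 0.15 without *Atm*-WT 13M. *Psmd10*, also known as gankyrin, had 8.26, 6.43, 7.58 and 8.32 CPM in *Atm*-WT and 6.59, 7.59, 7.196 and 6.08 CPM in *Atm*-KO (log2 fold change -0.16, unadjusted p = 0.251 by edgeR), and its value was -0.23 without *Atm*-WT 7M and -0.10 without *Atm*-KO 12M. *Psmd5* had 55.2, 63.4, 63.7 and 61.6 CPM in *Atm*-WT and 56.9, 59.5, 63.6 and 53.5 CPM in *Atm*-KO (log2 fold change -0.06, unadjusted p = 0.409 by edgeR), and it had -0.11 without *Atm*-WT 2M, -0.03 without *Atm*-WT 13M and -0.02 without *Atm*-KO 12M. None of the 3 separated the genotypes.

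Levels of the genes were compared per length, as CPM per kb of the canonical transcript. All members other than *Psma8* and *Psmb11* were clearly expressed, with 411 to 19698 counts in each library. In *Atm*-WT, *Psmd2* was the highest at 75.5 ± 1.27 CPM per kb (SD, n = 4), followed by *Psmc5* at 62.4 ± 7.19, *Psma6* at 58.8 ± 6.69 and *Psmb4* at 57.6 ± 5.37. *Psmd2* lay above the range of *Psmc5*. The lowest were *Psmd9* at 6.87 ± 0.807, *Psmd10* at 5.17 ± 0.592 and *Psmb2* at 4.14 ± 0.858 CPM per kb. The range of *Psmb1*, at 13.7 ± 1.07, lay above that of *Psmd9*, and *Psmd9* lay above *Psmd10*, while *Psmd10* and *Psmb2* overlapped. In all, 30 of the 33 pairs of neighbours in this order overlapped between their *Atm*-WT libraries. The median was 32.5 CPM per kb, and 27 of 34 members lay within 2-fold of it. The members other than *Psma8* thus differed up to 18.2-fold in RNA per annotated length, and 32.2-fold when the union of all annotated exons was used as the length. Without the base chaperones, the latter was 25.4-fold, from *Psmd2* to *Psmb2*. With that length *Psmb7* moved from place 5 to place 20, so places in the middle of the order depend on the isoform assumed. The catalytic subunits were at 54.7 ± 5.69 for *Psmb7*, 42.7 ± 4.42 for *Psmb6* and 15.5 ± 1.62 CPM per kb for *Psmb5*. The members tested together took 0.193% to 0.235% of the raw counts in *Atm*-WT, against 0.187% to 0.206% in *Atm*-KO. This share overlapped between the genotypes, but unlike the CPM it was taken without the TMM scaling.

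**Figure D4:**
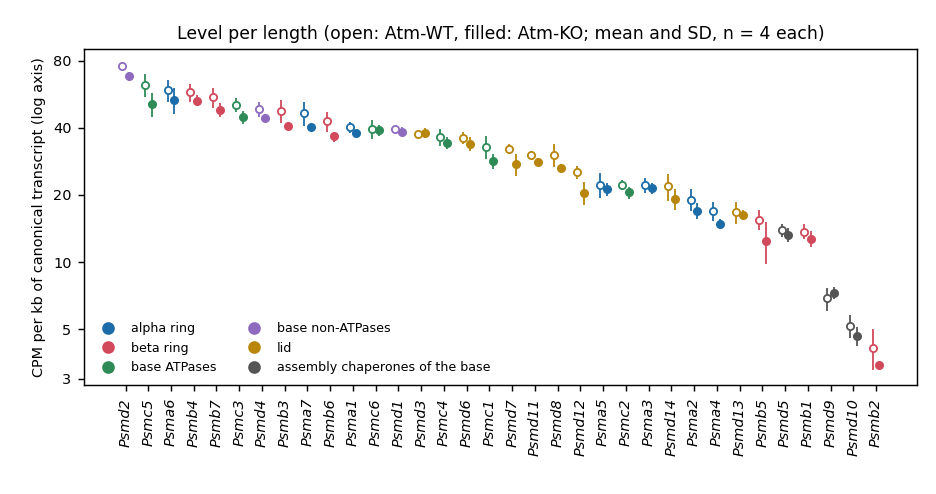
Level of 34 proteasome subunit genes in CPM per kb of canonical transcript (y axis, log scale), ordered by the *Atm*-WT mean (x axis) and coloured by role, as mean and SD of 4 *Atm*-WT (open) and 4 *Atm*-KO (filled) mice. The levels run from 75.5 CPM per kb in *Psmd2* to 4.14 in *Psmb2*.

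Other genes of the ubiquitin-proteasome route gave 0 calls at an adjusted p under 0.05 by edgeR in 6 lists with 37 tested genes. At an unadjusted p under 0.05, 6 of these genes were lower and 1 was higher, beside 8.48% and 11.7% of all genes. Among the protein-coding genes and the 4485 most highly expressed genes, 11.7% and 15.5% were lower at that threshold. The inducible beta subunits *Psmb8*, *Psmb9* and *Psmb10*, which replace the constitutive ones in the immunoproteasome, were 3 of 3 below 0 with a median of -0.33 and no unadjusted p under 0.05. They were low, with a summed 6.56 to 9.17 CPM in *Atm*-WT, against 5.80 to 6.89 CPM in *Atm*-KO. Of the activators and the inhibitor of the core, 3 of 5 were below 0 and none had an unadjusted p under 0.05. The 2 subunits of the interferon-responsive 11S cap, *Psme1* and *Psme2*, had -0.26 and -0.28, and *Psme4*, which caps the core without ATP, had 0.16 (unadjusted p = 0.0935 by edgeR). Among 13 assembly and associated factors, 8 were below 0 and 5 above with a median of -0.05. *Uchl5*, a deubiquitinase of the regulatory particle, had -0.22 (unadjusted p = 0.0315 by edgeR) and *Psmg3*, an assembly chaperone of the core, had 0.67 (unadjusted p = 0.0339 by edgeR) at 0.921 to 3.36 CPM.

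Of the genes of NRF1, NRF2 and the factors that act on NRF1, 4 of 5 were below 0. *Nfe2l2*, which encodes NRF2, had 20.5, 18.6, 14.8 and 15.7 CPM in *Atm*-WT and 10.9, 13.1, 13.8 and 10.5 CPM in *Atm*-KO. The genotypes did not overlap (log2 fold change -0.52, SE 0.13, unadjusted p = 0.00173, adjusted p = 0.0981 by edgeR). Lower values without overlap were found in 5.12% of all genes, 6.98% of the protein-coding genes and 10.1% of the 4485 most highly expressed genes. *Nfe2l1*, which encodes NRF1, had 264, 264, 239 and 273 CPM in *Atm*-WT and 211, 252, 252 and 202 CPM in *Atm*-KO, with overlap (log2 fold change -0.18, unadjusted p = 0.0534 by edgeR). *Vcp*, the ATPase that extracts substrates and NRF1 from the membrane of the endoplasmic reticulum, had -0.16 (unadjusted p = 0.0335 by edgeR). *Ddi2* and *Ngly1*, which cut and deglycosylate NRF1, had -0.02 and 0.07.

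Of the genes of ubiquitin and its activating enzymes, 5 of 6 were below 0. *Ubb* encodes a chain of ubiquitins and had 303, 244, 251 and 363 CPM in *Atm*-WT and 198.5, 257, 226 and 195 CPM in *Atm*-KO (log2 fold change -0.40, unadjusted p = 0.00905 by edgeR). *Rps27a*, a fusion of ubiquitin with a ribosomal protein, had -0.35 without overlap (unadjusted p = 0.0141 by edgeR). *Atm*-WT 32M was the highest library for both. All 5 shuttle factors, which carry ubiquitinated proteins to the particle, were below 0. *Ubqln2* had 181, 183, 169 and 174 CPM in *Atm*-WT and 138, 164, 152 and 150 CPM in *Atm*-KO, again without overlap (log2 fold change -0.23, SE 0.07, unadjusted p = 0.00499, adjusted p = 0.116 by edgeR). Unlike *Ubb*, it was not highest in *Atm*-WT 32M.

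**Figure D5:**
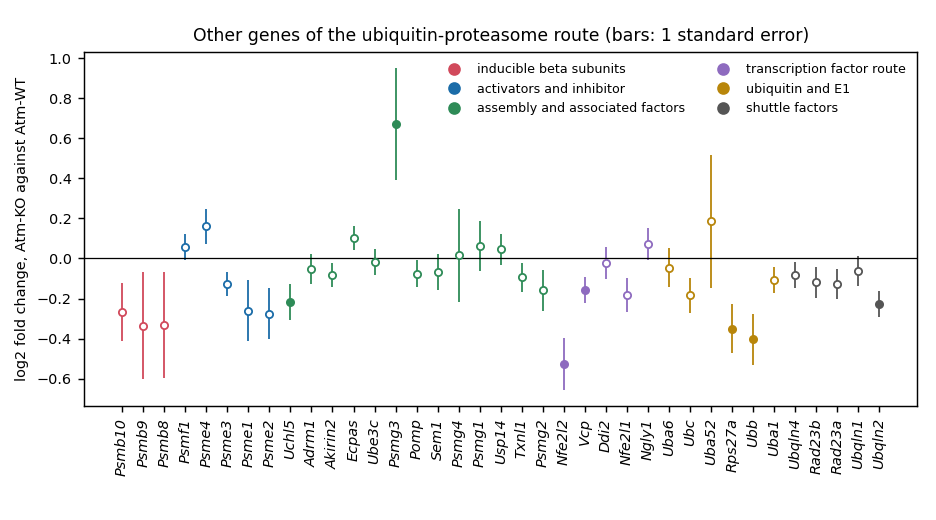
Log2 fold change of *Atm*-KO against *Atm*-WT (y axis) of the other genes of the ubiquitin-proteasome route (x axis, coloured by list), with bars of 1 standard error and n = 4 mice per genotype. Filled points have an unadjusted p under 0.05, the lowest being *Nfe2l2* at -0.52 and the highest *Psmg3* at 0.67.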

How the data were processed

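RNA of 8 frozen mouse cerebella was sequenced by Novogene. Per the labels and the methods of the study, the authors checked reads with FastQC 0.11.9, aligned them with STAR to GRCm39 and deposited raw counts per gene from featureCounts, without normalization. The strand and pair settings are not given in the sources used here. Of the counts from 1 to 50 in a library, 67.3% to 73.3% were even, the most in *Atm*-WT 32M, so many read pairs may have been counted once per mate, and a count is then not an independent fragment. Totals were 65967130 to 88030300 counts, so sampling error is small beside the spread between mice. Gene identifiers were matched to GENCODE vM39 (98.8%).

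Genotypes were compared with edgeR 4.0.16 (filterByExpr, TMM, glmQLFit and glmQLFTest, no covariate) over 22423 genes with Benjamini-Hochberg adjustment, after a test on simulated data. log2 CPM used a prior count of 2. Exons shared with other genes and near copies (at least 95% identity over 50% of the transcript, minimap2) were listed. All members were named by role; values in every library were given for *Psmb5*, *Psmb6*, *Psmb7*, the 2 smallest and the largest p of each role, and the 3 largest changes in each direction. *Psma1*, *Psmb2*, *Psmd14* and genes outside the family were detailed after their values were seen. The members and lists were chosen with earlier results of these data known. Alternatives were DESeq2 1.42.0, limma 3.58.1 voom, other scalings, filters and gene sets, a surrogate variable (sva 3.50.0), a trend of length and GC content removed, and each library left out.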

Additional observations from a re-analysis of the deposited data

Results flagged for a closer look

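Within a genotype, a library was tested for standing apart from the other 3 by Dixon's gap over range, in 168 groups of 4 values, where chance gives about 1 in 20. It marked 13 values, 6 of them in *Atm*-WT 32M and 3 in *Atm*-KO 12M. *Atm*-WT 32M was high for *Psma5* (37.1 CPM against 29.0 to 29.6), *Psma8* (0.478 against 0.175 to 0.211 CPM) and *Psmb4* (77.7 against 64.1 to 65.8 CPM). It was low for *Psmd2* (222 against 229 to 230 CPM), for the median relative level of the base subunits that are not ATPases (-0.0364 against 0.01 to 0.02) and for that of the nuclear RNAs (-0.41 against 0.08 to 0.14). *Atm*-KO 12M was low for *Psmb5* (14.5 against 22.9 to 24.1 CPM), *Psmb7* (49.8 against 57.8 to 58.6 CPM) and the total count (65967130 against 76598492 to 78431478). *Atm*-WT 7M was low for the median relative level of the base chaperones (-0.24 against 0.05 to 0.09), and *Atm*-WT 2M was low for *Usp14* (123 against 142 to 145 CPM). Among the inducible subunits, *Psmb9* was high in *Atm*-KO 7F (0.723 against 0.478 to 0.503 CPM) and *Psmb8* in *Atm*-KO 1M (1.42 against 0.878 to 0.928 CPM).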

How the results depend on the processing

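The direction of the median of the members was the same in all 19 alternatives run. It was -0.174 to -0.0903 when a library was left out, -0.224 with the length and GC trend removed, and -0.0389 with a surrogate variable, the last of which moved it by more than the spread between libraries. Of 664 refitted values of single members, 38 had the other sign, in 9 members. The number of members lower at an unadjusted p under 0.05 (11) was 2 with library size alone (4.66% of all genes tested in that fit), 7 with at least 10 counts in every library (7.13%), 4 with protein-coding genes only (7.41%), 0 with a surrogate variable (4.35%), 24 with the length and GC trend removed (12.7%), and 3 to 17 when a library was left out (5.67% to 8.63%). With the surrogate variable 1 member, *Psma8*, was higher at that threshold. The number of members at an adjusted p under 0.05 was 1 with DESeq2 and 0 when any library was left out. The number of all genes at an adjusted p under 0.05 (4) was 1552 with DESeq2, 591 with no filter on low counts, 2 with protein-coding genes only, 9 with the length and GC trend removed, and 1 to 27 when a library was left out. Leaving out *Atm*-WT 32M and *Atm*-KO 12M together, chosen after seeing the data, gave 24 genes and 1 member lower. The cause of these shifts was not tested.

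Sign changes were found in the weakly expressed *Psma8* and in 8 members whose value lay within 0.09 of 0. With library size alone they were 0.00539 for *Psma3*, 0.0289 for *Psmc6*, 0.0174 for *Psmd1* and 0.012 for *Psmd13*. With protein-coding genes only they were 0.000864 for *Psma3*, 0.0252 for *Psmc6*, 0.0105 for *Psmd1* and 0.00946 for *Psmd13*. With the surrogate variable they were 0.0014 for *Psma3*, 0.0316 for *Psma5*, 0.0762 for *Psmc6*, -0.00553 for *Psmd3*, 0.0105 for *Psmd6*, 0.00488 for *Psmd13* and 0.00279 for *Psmd5*. *Psma8* had -0.0762 with limma voom and -0.117 with the length and GC trend removed, and *Psmc6* had 0.00717 with at least 10 counts. Without both libraries the values were 0.0216 for *Psma3*, 0.0494 for *Psma5*, 0.0804 for *Psmc6*, -0.00368 for *Psmd3*, 0.00308 for *Psmd6* and 0.0256 for *Psmd13*. When a library was left out they ranged from -0.0818 to 0.00145 for *Psma3*, -0.111 to 0.01995 for *Psma5*, -0.149 to 0.514 for *Psma8*, -0.0612 to 0.0459 for *Psmc6*, -0.0118 to 0.0508 for *Psmd3* and -0.106 to 0.0276 for *Psmd13*. The highest over the lowest level per kb was 18.2 with canonical transcripts and 32.2 with the union of exons.

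No paired analysis was possible because the labels pair no mice and the genotypes share fewer than 2 replicate numbers. With 4 mice per genotype and whole tissue, differences near -0.14 on the log2 scale lie within about 2 standard errors for most members (median standard error 0.08).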
